A study of Mus musculus with 6 samples.

Results

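The 45 genes described here encode the machinery of DNA replication and the regulators that start S phase, and they were measured by RNA-seq in primary muscle cells of the mouse oviduct. Members were taken by symbol from a list of replication genes, and all 45 were found among the 54232 genes of the count table. The rule used no measured value, but the members were chosen with earlier results of these data known. The 6 samples were 3 libraries of WT origin and 3 of Pbrm1 cKO origin, a conditional knockout of Pbrm1, the gene for a subunit of the PBAF chromatin remodeling complex. All 6 came from mated females of 8 to 12 weeks on day 2 of pregnancy. In both groups the oviducts were digested with trypsin, collagenase and dispase, and the cells were filtered, plated for 4 h in serum-containing medium and kept for another 2 h in fresh medium before RNA was taken, so the levels below are those of cells that had been a short time in culture. In the study's Pbrm1 cKO females the cre is driven from the progesterone receptor gene, so cells of the oviduct in which it was never active keep Pbrm1. The labels call the controls WT, whereas a legend of the study names floxed females without cre. The same legend calls the replicates biological. Whether a library holds 1 female or a pool is not given in the labels, so the p-values measure the spread between these libraries, which may in part be technical.

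Replication is prepared in G1, when the origin recognition complex, Cdc6 and Cdt1 load the ring-shaped MCM helicase onto DNA. At the G1/S border, cyclin E with its kinase releases E2F transcription factors from RB family proteins, E2F raises the genes of the replication machinery and of nucleotide synthesis, and Cdc45 and the GINS complex join MCM to form the active helicase. DNA polymerase alpha with primase starts each strand, PCNA holds polymerases delta and epsilon on the template, and histone chaperones rebuild chromatin behind the fork. Genes that act later, in mitosis, depend on complexes that contain MuvB and read CHR elements, often beside CCAAT boxes bound by NF-Y. Most smooth muscle of an adult organ divides rarely, and muscle cells placed in serum can re-enter the cell cycle.

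Promoter letters are shown first, because the E2F site is the feature that the replication genes are best known for. RefSeq windows from 250 bases before to 50 bases after the start (GRCm38.p6) were matched by symbol for 36 of the 45 members. Mcm4, Gins1, Gins2, Gins4, Prim2, Pole, Rfc2, Exo1 and Ccne2 had no entry. On both strands, 4 words of the E2F consensus were searched (TTTGGCGC, TTTGCCGC, TTTCGCGC and TTTCCCGC), with the CCAAT box (CCAAT) and the CHR element (TTTGAA or TTCGAA). E2F words can overlap each other on opposite strands, but no E2F word holds a CCAAT box or a CHR element. Among members with a window, 15 of 36 genes held an E2F word (41.7%), against 4.6% of the 10744 tested genes with a window and 2.6% of all 27025 genes with one. Members called lower and members not called held the word equally often, 10 of 25 (40.0%) and 4 of 10 (40.0%). The CHR element was in the windows of 7 of 36 members (19.4%) and of 13 of 17 genes of a mitosis list (76.5%), against 16.5% of the tested genes. For the CCAAT box the shares were 58.3% of members, 88.2% of the mitosis list and 42.5% of the tested genes. These are matches of letters and do not show that a factor was bound.

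The stretches below are those of members described in full whose first 280 window bases hold an E2F word. They are given from 250 bases before to 30 bases after the RefSeq start, 5′ to 3′ on the strand of the gene, with E2F words and CCAAT boxes on either strand in capitals. Orc1 is at chr4:108579204-108579483 on the plus strand, Mcm6 at chr1:128359676-128359955 on the minus strand, Pola1 at chrX:93632126-93632405 on the minus strand, Pole2 at chr12:69228161-69228440 on the minus strand and Uhrf1 at chr17:56304063-56304342 on the plus strand. Uhrf1 has 2 windows with different starts. The second was printed because the first (chr17:56303087-56303386) holds no E2F word, and positions in Uhrf1 are counted from the start of the second.
Orc1: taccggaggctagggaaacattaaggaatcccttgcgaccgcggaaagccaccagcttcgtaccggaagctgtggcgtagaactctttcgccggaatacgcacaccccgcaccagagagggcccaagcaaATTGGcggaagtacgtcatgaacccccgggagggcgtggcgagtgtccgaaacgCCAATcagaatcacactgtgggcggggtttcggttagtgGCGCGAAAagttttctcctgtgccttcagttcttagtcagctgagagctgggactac
Mcm6: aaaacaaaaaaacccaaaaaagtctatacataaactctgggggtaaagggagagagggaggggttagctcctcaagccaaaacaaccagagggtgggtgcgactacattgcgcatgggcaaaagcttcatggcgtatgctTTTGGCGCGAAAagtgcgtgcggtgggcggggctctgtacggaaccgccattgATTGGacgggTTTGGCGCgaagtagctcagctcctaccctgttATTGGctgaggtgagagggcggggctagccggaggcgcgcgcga
Pola1: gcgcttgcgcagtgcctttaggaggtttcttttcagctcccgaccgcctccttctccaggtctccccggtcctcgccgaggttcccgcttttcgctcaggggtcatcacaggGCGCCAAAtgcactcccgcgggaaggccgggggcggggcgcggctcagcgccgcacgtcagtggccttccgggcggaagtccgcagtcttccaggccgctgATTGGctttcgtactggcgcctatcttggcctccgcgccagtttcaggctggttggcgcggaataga
Pole2: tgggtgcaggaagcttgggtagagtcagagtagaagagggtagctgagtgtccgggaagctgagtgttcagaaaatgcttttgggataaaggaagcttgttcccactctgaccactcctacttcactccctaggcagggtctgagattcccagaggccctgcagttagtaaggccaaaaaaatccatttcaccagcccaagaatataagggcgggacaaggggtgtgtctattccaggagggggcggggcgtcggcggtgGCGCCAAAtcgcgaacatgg
Uhrf1: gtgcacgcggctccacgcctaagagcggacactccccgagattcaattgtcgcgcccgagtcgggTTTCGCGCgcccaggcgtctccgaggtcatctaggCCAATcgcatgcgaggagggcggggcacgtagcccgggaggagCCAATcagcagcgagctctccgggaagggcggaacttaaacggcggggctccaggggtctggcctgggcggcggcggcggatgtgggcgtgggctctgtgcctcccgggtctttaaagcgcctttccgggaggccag
Counted from the start as position 0 to the first base of the word as printed, the E2F words lay at -27 in Orc1, at -138 in Pola1, at 10 in Pole2 and at -185 in Uhrf1. Mcm6 held 3 words, at -110, -106 and -47, the first and the second of which overlap. In the comparison below, Orc1, Pola1 and Uhrf1 were lower in Pbrm1 cKO, Mcm6 was not called and Pole2 was higher, so genes with the same word were found on each side.

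Pbrm1 itself was read first as a check of the labels. Its CPM (CPM are counts scaled to a common library total with TMM factors) was 170.1, 183 and 172 in the WT libraries and 43.5, 50.7 and 42.7 in the Pbrm1 cKO libraries, and the groups did not overlap. The log2 fold change of Pbrm1 cKO relative to WT was -1.94 ± 0.06 (SE, n = 3 against 3, edgeR adjusted p = 1.87e-12), which left 26.0% of the WT mean. Libraries held 15390818 to 18947947 counts, 6.88% to 8.24% of them mitochondrial. The biological coefficient of variation, estimated by edgeR as 1 value for all genes and without counting noise, was 5.32%. Smooth muscle markers were present in all libraries, with Acta2 at 1249 to 1312 CPM in WT and 1387 to 1633 in Pbrm1 cKO. Their levels differed widely, with WT means from 4.60 (Myocd) to 1598 CPM (Tagln). Markers of other cell types were present too, such as the fibroblast marker Pdgfra and the leukocyte marker Lyz2, with WT means of 747 and 452.5 CPM. Of 8 oocyte and early embryo markers, Zp3, Oosp1, Zscan4c and Zar1 were at 0 in all 6 libraries and the summed level of the list did not exceed 1.18 CPM.

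Most of the replication genes fell, by small amounts. All 45 members passed the filter on low counts, 30 were called lower in Pbrm1 cKO (edgeR adjusted p under 0.05), 1 was called higher and 14 were not called. That is 66.7% of members called lower, where 21.8% of the 15376 genes tested were called lower, 22.0% higher and 43.8% in either direction. The median log2 fold change of the members was -0.22, against 0.00 for all genes tested, and the range ran from -0.47 for Orc1 to 0.29 for Pole2. No member fell past -0.5 on the log2 scale. In 32 members every Pbrm1 cKO library was below every WT library, and in 1, Pole2, every one was above, where 26.9% of all genes tested had their Pbrm1 cKO range below WT. In bulk RNA, fewer cells in S phase and less RNA of these genes per cell cannot be told apart.

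**Figure D1:**
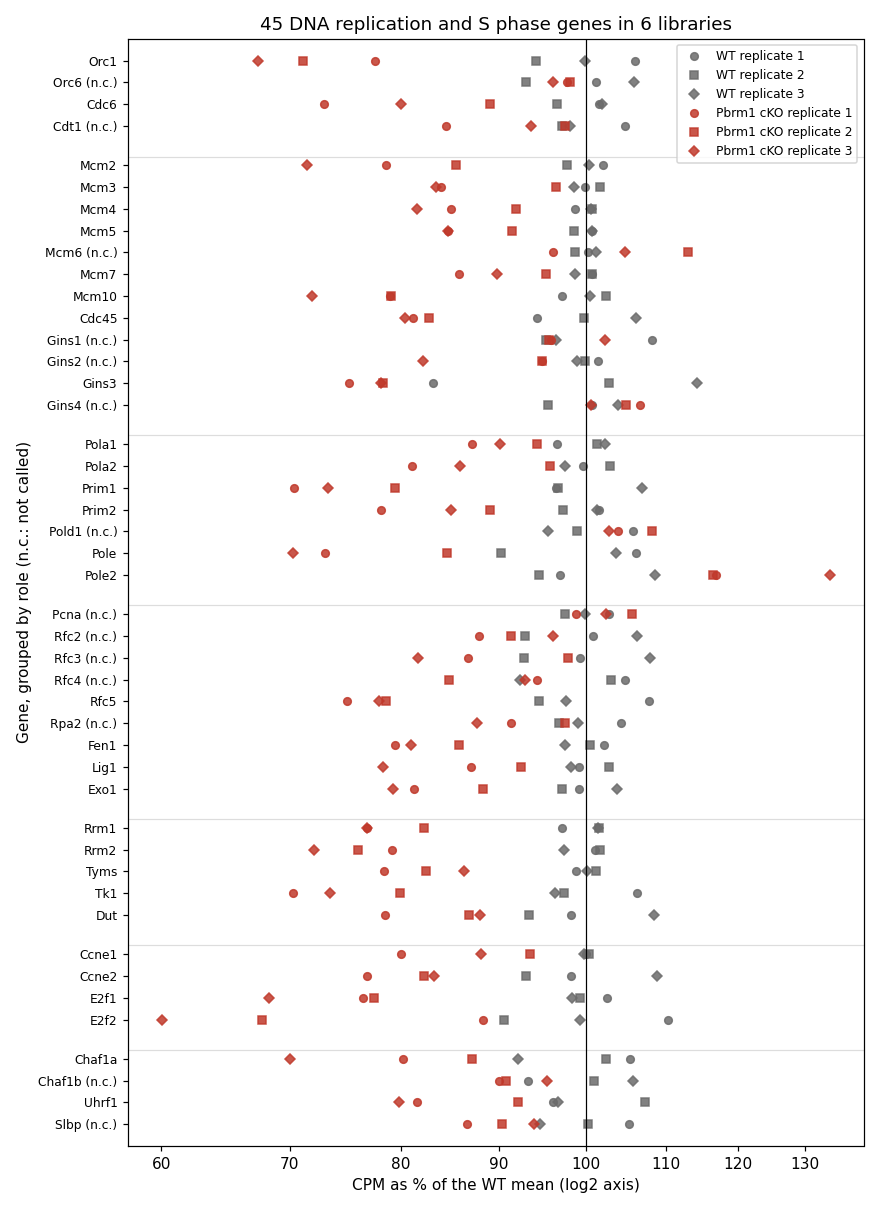
CPM of each of the 45 members in each library as a percentage of the WT mean of that gene (log2 axis), grouped by role, with WT libraries in grey and Pbrm1 cKO libraries in red, and n.c. for members not called. Most red points lie left of 100%, Pole2 lies right of it, and Orc6, Mcm6, Gins1, Gins4, Pold1 and Pcna lie around it.

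Summed over the 45 members, the level was 3467, 3430 and 3467 CPM in WT and 2917, 3162 and 2936 CPM in Pbrm1 cKO, or 87.0% of the WT mean. The groups did not overlap, and Pbrm1 cKO replicate 2 stood nearest to WT, at 91.5% against 84.5% and 85.0% for replicates 1 and 3. It held the highest value of its group for 32 of the 45 members and the lowest for 3. The median log2 ratio of the members to their WT means was -0.15 in that library, -0.29 in replicate 1 and -0.26 in replicate 3, while the WT libraries lay between -0.02 and 0.01. Without Pbrm1 cKO replicate 2 the median fold change was -0.26 and 32 members were called, and without replicate 1 it was -0.20 and 24 were called. Without each WT library in turn, 25 to 27 members were called, and 28 without Pbrm1 cKO replicate 3.

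Of the 4 origin licensing members, Orc1 and Cdc6 fell and Orc6 and Cdt1 were not called. That is 50% called, near the 43.8% of all genes tested in either direction, where 21.8% were called lower. Orc1, the ATPase subunit of the origin recognition complex that is made anew in each cycle, was at 19.2, 17.1 and 18.1 CPM in WT and at 14.1, 12.9 and 12.2 in Pbrm1 cKO. All 3 Pbrm1 cKO libraries were below the lowest WT library. Its log2 fold change of -0.47 ± 0.09 (SE, adjusted p = 4.62e-04) was the largest fall among the members. Orc6, the smallest subunit of the same complex, was at 57.3, 52.7 and 60.01 CPM in WT and 55.4, 55.6 and 54.4 in Pbrm1 cKO, so the groups overlapped (-0.04 ± 0.06, adjusted p = 0.626). The ratio of Orc6 to Orc1 counts within a library, picked after the values were seen, was 3.13 ± 0.170 in WT and 4.24 ± 0.265 in Pbrm1 cKO (SD, n = 3). Cdc6, the ATPase that loads MCM together with Cdt1, fell by 0.31 on the log2 scale. Cdt1 gave -0.12 (adjusted p = 0.132), and -0.16 without Pbrm1 cKO replicate 2, which brought it past the threshold (adjusted p = 0.0445).

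Of the 12 helicase members, 8 fell, none rose past the threshold, and the median was -0.19. The MCM ring is built from Mcm2 to Mcm7 in equal numbers, and 5 of these 6 genes fell, Mcm2 by 0.35, Mcm4 by 0.21, Mcm5 by 0.20, Mcm3 by 0.18 and Mcm7 by 0.15 on the log2 scale. Mcm6 was the exception. It was at 227, 223 and 229 CPM in WT and at 218, 256 and 237 in Pbrm1 cKO, where replicate 1 was below the WT range and replicates 2 and 3 were above it. Its log2 fold change was 0.07 ± 0.05 (SE, adjusted p = 0.339). Within a library, the ratio of Mcm6 to Mcm2 counts, also picked after the values were seen, was 1.32, 1.36 and 1.36 in WT and 1.65, 1.78 and 1.98 in Pbrm1 cKO. These ratios did not overlap, and a ratio inside a library does not depend on the scaling between libraries. Per kilobase of annotated exon, the ring genes lay between 24.2 (Mcm2) and 64.3 (Mcm4) CPM per kb in WT and between 19.0 and 55.4 in Pbrm1 cKO, with Mcm6 at 48.5 and 50.8. Exon length here counts all annotated isoforms, so levels per kb are too low for genes with long rare isoforms.

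Mcm10, which helps to activate the loaded helicase, fell furthest of the helicase members. It was at 39.4, 41.5 and 40.7 CPM in WT and at 32.0, 32.0 and 29.2 in Pbrm1 cKO, with no overlap. The log2 fold change was -0.38 ± 0.06 (SE, adjusted p = 1.41e-04). Cdc45, the partner that turns MCM into the moving helicase, fell by 0.30. Among the 4 GINS subunits, Gins3 fell by 0.37, while Gins1 (-0.03, adjusted p = 0.834), Gins2 (-0.14, adjusted p = 0.116) and Gins4 (0.06, adjusted p = 0.512) were not called. Some calls of this role depended on single libraries. Mcm3 lost its call without Pbrm1 cKO replicate 1 (adjusted p = 0.0645). For Mcm7 this happened without WT replicate 1 (adjusted p = 0.0572), WT replicate 2 (0.0665) or Pbrm1 cKO replicate 1 (0.113). Gins3 lost it without WT replicate 2 (adjusted p = 0.0561), WT replicate 3 (0.103) or Pbrm1 cKO replicate 1 (0.058).

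Of the 7 primase and polymerase members, 5 fell, Pole2 rose and Pold1 was not called. All 4 genes of the polymerase alpha and primase complex, which lays the first RNA and DNA bases of each strand, were lower. Prim1, the catalytic primase subunit, was at 49.0, 49.1 and 54.3 CPM in WT and at 35.8, 40.4 and 37.3 in Pbrm1 cKO. The groups did not overlap (-0.43 ± 0.07, SE, adjusted p = 6.41e-05). Pola1, the catalytic polymerase alpha subunit, was at 91.1, 95.5 and 96.4 CPM in WT and at 82.2, 88.9 and 85.0 in Pbrm1 cKO. Here too the groups were apart, by a small step (-0.14 ± 0.05, SE, adjusted p = 0.0267). Prim2, the regulatory primase subunit, fell by 0.25 and Pola2, the second alpha subunit, by 0.19. The calls of Pola1 and Pola2 were lost under DESeq2 (adjusted p = 0.0674 and 0.0746). Pola1 was also lost without WT replicate 2 (adjusted p = 0.0923), WT replicate 3 (0.0932), Pbrm1 cKO replicate 1 (0.125) or Pbrm1 cKO replicate 3 (0.0556). Pola2 was lost without WT replicate 1, 2 or 3 (adjusted p = 0.0655, 0.112 and 0.053), without Pbrm1 cKO replicate 1 (0.171) or without Pbrm1 cKO replicate 3 (0.0757).

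Polymerase epsilon, which copies the leading strand, showed its subunits moving apart. Pole, the catalytic subunit, fell by 0.39 on the log2 scale (adjusted p = 0.00111). Pole2, the subunit that ties the polymerase to the helicase, was the only member that rose. It was at 16.6, 16.2 and 18.6 CPM in WT and at 20.02, 19.95 and 23.0 in Pbrm1 cKO, so every Pbrm1 cKO library was above the highest WT library. The log2 fold change was 0.29 ± 0.09 (SE, adjusted p = 0.013). The ratio of Pole2 to Pole counts within a library, picked after the values were seen, was 0.225, 0.258 and 0.258 in WT and 0.394, 0.339 and 0.470 in Pbrm1 cKO. Ratios of the groups did not overlap, and the Pbrm1 cKO mean was 162% of the WT mean. The call of Pole2 was lost without WT replicate 1 (adjusted p = 0.0501), WT replicate 2 (0.0658) or Pbrm1 cKO replicate 3 (0.0656), and its log2 fold change then stayed between 0.22 and 0.27. Of the other small epsilon subunits, which are no members, Pole3 fell by 0.17 and Pole4 rose by 0.15 (adjusted p = 0.0169 and 0.0449). Pold1, the catalytic subunit of polymerase delta on the lagging strand, gave 0.07 (adjusted p = 0.323).

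**Figure D2:**
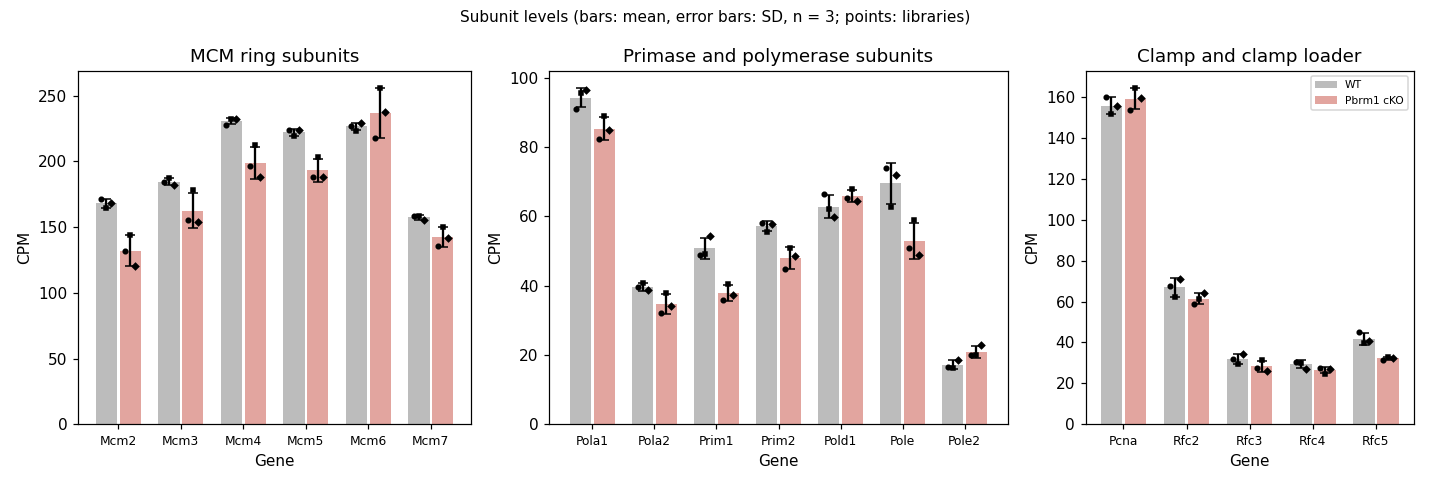
CPM of the MCM ring, of the primase and polymerase subunits and of the clamp and clamp loader in WT (grey) and Pbrm1 cKO (red), with bars for the mean, error bars for the SD of 3 libraries and points for libraries. The groups overlap for Mcm6, Pold1, Pcna, Rfc2, Rfc3 and Rfc4, lie lower without overlap in Pbrm1 cKO for the other ring subunits, Pola1, Pola2, Prim1, Prim2, Pole and Rfc5, and lie higher for Pole2.

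Of the 9 members for the clamp, the clamp loader and strand processing, 4 fell and 5 were not called. That is 44.4% called, near the 43.8% of all genes tested in either direction, where 21.8% were called lower. Pcna, the sliding clamp and a common marker of proliferating cells, was at 159.9, 152 and 155 CPM in WT and at 154, 164 and 159 in Pbrm1 cKO. The groups overlapped, with a log2 fold change of 0.03 ± 0.05 (SE, adjusted p = 0.59) that stayed between -0.01 and 0.06 under 17 other settings. Rfc5, a subunit of the clamp loader RFC, was at 45.2, 39.6 and 40.9 CPM in WT and at 31.4, 32.9 and 32.6 in Pbrm1 cKO. There was no overlap (-0.37 ± 0.07, SE, adjusted p = 2.39e-04). The other loader subunits among the members were not called, with -0.12 for Rfc2, -0.17 for Rfc3 and -0.14 for Rfc4 (adjusted p = 0.104, 0.0977 and 0.128). Rfc1, the large loader subunit and no member, fell by 0.16 (adjusted p = 0.0139). Rfc2 passed without WT replicate 2 (adjusted p = 0.0432) and Rfc3 without Pbrm1 cKO replicate 2 (0.0147). Fen1 and Lig1, which trim and seal Okazaki fragments, fell by 0.28 and 0.22, and Exo1, an exonuclease of mismatch repair, by 0.27. Rpa2, a subunit of the single-strand binding protein RPA, gave -0.12 (adjusted p = 0.14).

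Nucleotide supply was 1 of 2 roles in which every member fell. The summed level of its 5 genes was 565, 575 and 575 CPM in WT and 442, 463 and 443 in Pbrm1 cKO, or 78.6% of the WT mean. Rrm1, the large subunit of ribonucleotide reductase, which makes deoxyribonucleotides, was at 288, 301 and 301 CPM in WT and at 228, 244 and 228 in Pbrm1 cKO. The groups did not overlap, and the log2 fold change was -0.35 ± 0.04 (SE, adjusted p = 1.06e-05). Rrm2, the small subunit that is made in S phase, fell by 0.40. Tk1, the thymidine salvage kinase that is expressed with S phase, was at 31.4, 28.8 and 28.5 CPM in WT and at 20.8, 23.7 and 21.8 in Pbrm1 cKO. Every Pbrm1 cKO value was below every WT value (-0.42 ± 0.07, SE, adjusted p = 2.50e-04). Tyms, which makes thymidylate, fell by 0.28. Dut, which removes dUTP, fell by 0.24, a call that was lost without WT replicate 3 (adjusted p = 0.0641) or Pbrm1 cKO replicate 1 (0.0604).

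Pcna and Rrm2 have annotated pseudogene copies elsewhere in the genome that were counted as genes of their own. Pcna-ps2 (chr19:9283238-9284494) held 100, 93 and 121 counts in WT and 17, 32 and 10 in Pbrm1 cKO. Its level of 5.99 ± 1.06 CPM in WT and 1.10 ± 0.54 in Pbrm1 cKO (SD, n = 3) gave a log2 fold change of -2.40 ± 0.25 (SE, adjusted p = 3.08e-06). Gm48455 (chr13:12679940-12680359), a copy of part of Rrm2, held 49, 78 and 67 counts in WT and 10, 17 and 13 in Pbrm1 cKO. It fell from 3.66 ± 0.68 to 0.767 ± 0.180 CPM (log2 fold change -2.25 ± 0.25, adjusted p = 2.20e-06). Neither copy overlapped between groups, and both fell by more than any member. Reads of a gene and of a near-identical copy can be divided by a few bases, so the split is uncertain, but the copy held only 0.0385 ± 0.0066 of the Pcna count in WT. With copies added, the log2 fold change was -0.01 for Pcna (adjusted p = 0.863) and -0.43 for Rrm2.

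**Figure D3:**
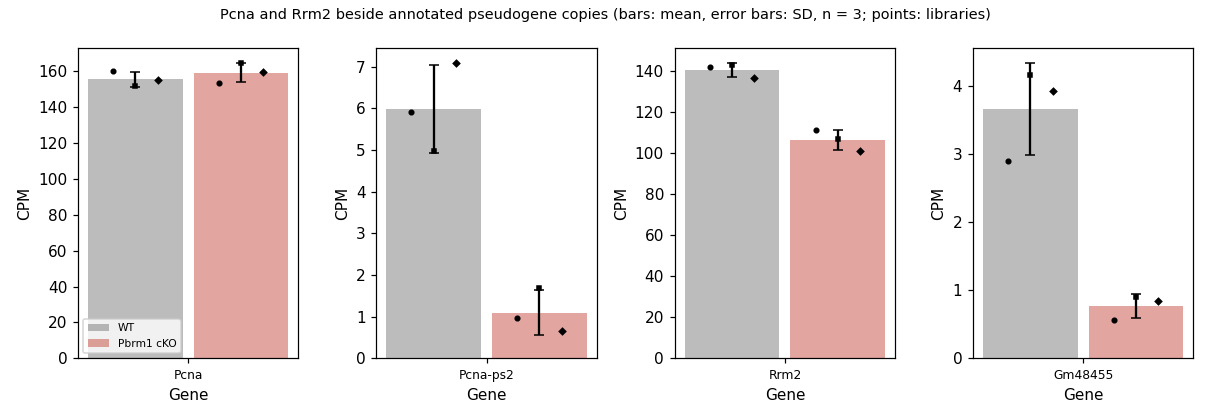
CPM of Pcna, its copy Pcna-ps2, Rrm2 and its copy Gm48455 in WT (grey) and Pbrm1 cKO (red), each panel with an axis of its own, with bars for the mean, error bars for the SD of 3 libraries and points for libraries. Pcna overlaps between groups, while Pcna-ps2 drops to 18.4% and Gm48455 to 20.9% of the WT mean.

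All 4 S phase entry regulators fell, with the lowest median of the 7 roles, -0.37. E2f2, a transcription factor of the E2F family that activates replication genes, had 69 to 76 counts per library in WT and 38 to 64 in Pbrm1 cKO, which made it the least precise member. That is 4.49, 3.69 and 4.04 CPM in WT and 3.60, 2.76 and 2.45 in Pbrm1 cKO, where replicate 1 lay just under the lowest WT library. The log2 fold change of -0.46 ± 0.18 (SE, adjusted p = 0.0438) did not stay called under DESeq2 (adjusted p = 0.121) or with library size scaling (0.0512). It was also lost without WT replicate 1, 2 or 3 (adjusted p = 0.146, 0.0503 and 0.0895) and without Pbrm1 cKO replicate 2 or 3 (0.0989 and 0.157). E2f1, the better expressed activator at 6.84 CPM per kb in WT against 0.834 for E2f2, fell by 0.43 (adjusted p = 3.97e-04) and kept its call under all 17 other settings. Ccne2, a cyclin E that drives entry into S phase, was at 50.9, 48.3 and 56.5 CPM in WT and at 39.9, 42.7 and 43.2 in Pbrm1 cKO. The ranges were apart (-0.31 ± 0.07, SE, adjusted p = 0.00123). Ccne1, the other cyclin E, fell by 0.20, which was not called without WT replicate 2 (adjusted p = 0.0552) or Pbrm1 cKO replicate 1 (0.122).

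Among the 4 members for chromatin and histone supply, Chaf1a and Uhrf1 fell and Chaf1b and Slbp were not called. So 50% were called, near the 43.8% of all genes tested in either direction, where 21.8% were called lower. Chaf1a, the large subunit of the chromatin assembly factor CAF-1, was at 64.1, 62.3 and 56.0 CPM in WT and at 48.8, 53.0 and 42.6 in Pbrm1 cKO. The groups did not overlap (-0.33 ± 0.08, SE, adjusted p = 0.00279). Chaf1b, its partner in CAF-1, gave -0.12 (adjusted p = 0.161). Uhrf1, which recruits the maintenance DNA methyltransferase to new DNA, was at 116, 129.8 and 117 CPM in WT and at 98.7, 111 and 96.6 in Pbrm1 cKO. Every Pbrm1 cKO library was below WT (-0.24 ± 0.06, SE, adjusted p = 0.00419). Slbp, which binds and stabilizes replication-dependent histone mRNA, gave -0.15 with an adjusted p of 0.051. Its ranges did not overlap, and it was called without WT replicate 3 (adjusted p = 0.0335), without Pbrm1 cKO replicate 3 (0.0387) and with RLE (0.0474) or upper quartile (0.0356) scaling.

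Other genes of the pathway were counted from lists outside the members. Of 97 genes tested, 54 were called lower, 7 higher and 36 were not called. Their median log2 fold change was -0.20, and 55.7% were lower against 21.8% of all genes tested. Among 13 other licensing and firing factors, 4 fell and 2 rose, and the median was -0.05. So 46.2% were called, near the 43.8% of all genes tested. Orc2, a core origin subunit, fell by 0.55, Dbf4, the activator of the Cdc7 kinase, by 0.40, and Ticrr, which brings Cdc45 to origins, by 0.37. Of 21 other fork components, 14 fell and 1 rose, with Clspn, a checkpoint mediator at the fork, down by 0.52, the topoisomerase Top2a by 0.51 and the nuclease Dna2 by 0.40. Of 14 further genes of nucleotide metabolism, 6 fell and 2 rose. Cad and Umps, which make pyrimidines, fell by 0.38 and 0.32, whereas Samhd1, an enzyme that breaks deoxyribonucleotides down, rose by 0.34. Of 9 other genes of replication-coupled chromatin, 6 fell and none rose, led by Supt16 (-0.37) of the histone chaperone FACT, Asf1b (-0.32), a chaperone of new histones, and the DNA methyltransferase Dnmt1 (-0.31).

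In the E2F and RB family, 5 of 15 genes fell and 2 rose, so 46.7% were called, near the 43.8% of all genes tested. Rbl2, the RB family protein p130 that represses cell cycle genes in resting cells, was at 18.6, 17.5 and 18.9 CPM in WT and at 29.2, 25.8 and 29.5 in Pbrm1 cKO. This log2 fold change of 0.62 ± 0.08 (SE, adjusted p = 8.53e-06) was the largest rise among the 97 genes. E2f7, a repressor that E2F itself induces, fell by 0.61, and Tfdp2, a partner of E2F proteins, by 0.43. Of 8 genes for G1/S kinases, a phosphatase and other G1/S regulators, 7 fell and none rose. Cdc25a, which activates cyclin-dependent kinases, was down by 0.59, Ccna2, the S phase cyclin A, by 0.55, and Skp2, which marks p27 for decay, by 0.40. Of 17 checkpoint and repair genes, 12 fell, among them the helicase Pif1 (-0.52) and the recombination genes Brca1 (-0.43) and Brca2 (-0.43). Of the 9 D cyclins and CDK inhibitors tested, 4 were called (44.4%), again near that background. Ccnd3 and Cdkn1a fell by 0.30 and 0.26, Ccnd1 and Cdkn1b rose by 0.35 and 0.22, and Cdkn2a was too low to test.

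**Figure D4:**
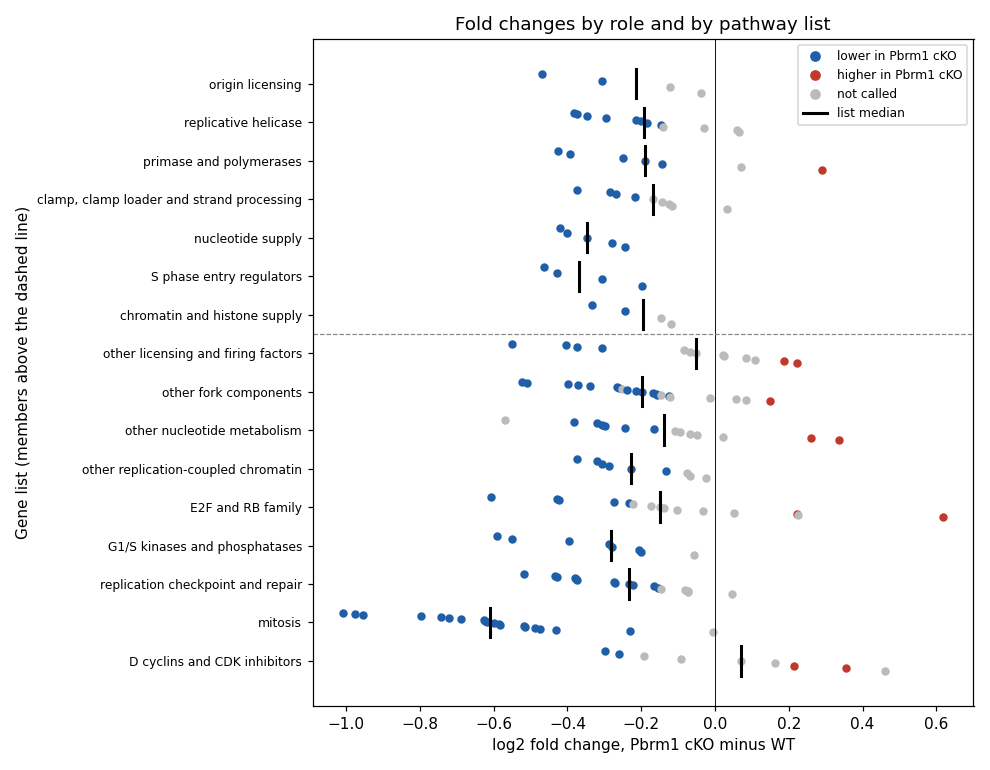
Log2 fold change of Pbrm1 cKO relative to WT for every tested member by role (above the dashed line) and for the other lists (below it), with blue for genes called lower, red for genes called higher, grey for genes not called and a black bar for the list median. Member roles have medians from -0.37 to -0.17, and the mitosis list has its median at -0.61.

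Mitosis genes showed larger falls than the replication genes. Of 20 genes in the mitosis list, 19 were called lower and none higher. Their median log2 fold change was -0.61, and 15 were past -0.5, where no member was. No test of this difference between lists was made. The kinetochore genes Cenpf and Cenpe fell by 1.01 and 0.95, and the mitotic kinase Plk1 by 0.98. Summed, the list was at 1337, 1267 and 1335 CPM in WT and at 845, 840 and 849 in Pbrm1 cKO, or 64.3% of the WT mean. The ratio of the mitosis sum to the member sum within a library was 0.386, 0.369 and 0.385 in WT and 0.289, 0.265 and 0.289 in Pbrm1 cKO, with no overlap. Pbrm1 cKO replicate 2, which stood nearest to WT in the member sum, did not stand apart in the mitosis sum. There it was at 63.9% of WT, close to replicates 1 and 3 at 64.3% and 64.7%.

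Markers of several cell types were read in the same fit, where 22.0% of all genes tested were called higher and 21.8% lower. Of 12 smooth muscle markers, 7 were higher in Pbrm1 cKO and 1 lower, and the summed level was 3912 to 4002 CPM in WT and 5010 to 5687 in Pbrm1 cKO. For fibroblast markers, 6 of 9 tested were higher and 2 lower (1221 to 1243 against 2059 to 2198 CPM). For leukocyte markers, 7 of 8 tested were higher (702 to 754 against 1010 to 1087 CPM), with Ptprc called higher and Cd3e and Cd79a too low to test. Epithelial markers had 5 of 8 higher (920 to 1005 against 1043 to 1164 CPM). Endothelial markers had 1 higher and 1 lower of 7, or 28.6% called, under the 43.8% of all genes tested. Their sum of 331 to 348 CPM in WT and 265 to 274 in Pbrm1 cKO followed Kdr, which went from 182 to 99.4 CPM, while Vwf was called higher. Mesothelial markers had 3 lower of 6 (Msln, Upk1b and Lrrn4), and their sum was still higher in Pbrm1 cKO (325 to 335 against 350 to 381 CPM) because it holds Krt19, which rose from 125 to 216 CPM. Among the Pbrm1 cKO libraries, replicate 2 had the lowest smooth muscle sum (126% of WT against 141% and 143%) and the lowest fibroblast sum (167% against 177% and 178%), but the highest leukocyte sum (151% against 140.3% and 145%). The part of cell composition in the levels of the replication genes was not tested.

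**Figure D5:**
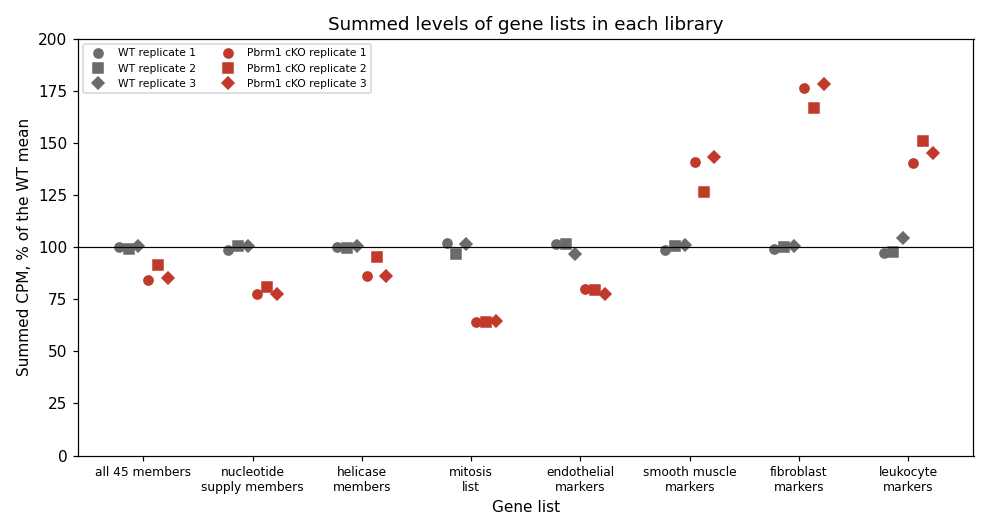
Summed CPM of gene lists in each library as a percentage of the WT mean, for all 45 members, their nucleotide supply and helicase genes, the mitosis list and marker lists, with WT in grey and Pbrm1 cKO in red. Members lie at 84.5% to 91.5% in Pbrm1 cKO, the mitosis list at 63.9% to 64.7% and the fibroblast markers at 167% to 178%.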

How the data were processed

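For 6 libraries, the authors deposited whole-number counts of reads per gene, made with featureCounts 1.6.4 in reverse-stranded mode (option 2) on exons of GENCODE M18, as the header of the table states. The submitters' processing notes name cutadapt, HISAT2 and GRCm38.p5. Reads that map to several places were left out by that counting, so genes with near-identical copies can lose or trade reads. Symbols came from GENCODE M21 for 54165 of 54232 genes (99.9%). Members, lists and tests were chosen with earlier results of these data known.

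Genes were tested with edgeR 4.0.16 in R 4.3.3 (robust quasi-likelihood F-test, two-sided, TMM scaling, filterByExpr by group) over 15376 genes, with Benjamini-Hochberg adjustment and a threshold of 0.05. SE was the absolute log2 fold change divided by the square root of F. The procedure was tested on data simulated with changes of 0.5 or more on the log2 scale, larger than the change of any member. Members with values in each library were Pcna and, by role, the called member with the largest fall, the member with the highest mean CPM and any called member that rose. From each other list up to 3 called genes were named by size of change, and Pole3, Pole4, Rfc1 and the marker genes were named after their values were seen. Copies were GENCODE M21 pseudogenes that matched a member transcript at 90% identity or more over 50% or more of their length (BLAST 2.17.0). Libraries held 15390818 to 18947947 counts, where 3 counts equal 0.158 to 0.195 CPM, and such limits cover counting error only. Pairs of replicates differed by more than sampling noise (chi-square per gene 1.24 to 1.55).

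Alternatives were DESeq2 1.42.0, limma-voom (limma 3.58.1), RLE, upper quartile and library size scaling, no filter or at least 10 counts in every library, a replicate block, a threshold of 0.01, mitochondrial genes left out, copies summed, and each library left out. The replicate numbers in the labels were not taken as pairs: deviations of same-numbered libraries correlated at -0.03, 0.04 and 0.11. All libraries and columns were used.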

Additional observations from a re-analysis of the deposited data

How the results depend on the processing

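No fold change of a member changed sign past the threshold in 17 alternatives. Of 765 values, 716 kept their side of the threshold, 40 lost the call and 9 gained it. Of the 40, 28 were lost on leaving out 1 library, 8 at an adjusted p under 0.01 and 3 under DESeq2. Some values that were called in neither fit changed sign, such as Orc6 at 0.002 without WT replicate 3 against -0.04. Members called numbered 28 under DESeq2, 23 at 0.01 and 30 to 32 under the other scalings, filters and models. Leaving out 1 library gave 24 to 32 members called, 23 to 31 called lower and 0 to 1 called higher, and a median log2 fold change from -0.26 to -0.20. At 0.01 the count of members called higher was 0. Other replication genes called higher were 4 under DESeq2 and 4 at 0.01, against 7, and 4 to 5 with a library left out. The replicate block gave 31 members called and a median of -0.22, changed no member's call, and gave 62 of the other replication genes against 61. Depth limited E2f2, with 38 to 76 counts per library.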

Other observations

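Of 16 annotated pseudogene copies of members, 9 were tested and only Pcna-ps2 and Gm48455 were called (edgeR adjusted p under 0.05), both lower. Of all genes tested, 43.8% were called in either direction and 21.8% were called lower, so copies were not called lower more often than genes at large. Those that were not called included Gm5648, a copy of Uhrf1 with 37 to 74 counts in WT and 42 to 70 in Pbrm1 cKO (-0.04, adjusted p = 0.915). Uncalled copies of Cdc6 (Gm9430, -0.83, adjusted p = 0.106), Mcm4 (Gm9577, -0.56, adjusted p = 0.0896) and Rfc5 (Gm12870, -0.43, adjusted p = 0.177) had Pbrm1 cKO ranges below WT, at 4 to 36 counts per library.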
